A study of Mus musculus with 49 samples.

Results

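The 41 genes described here are enzymes and transporters of glycolysis together with genes that respond to low oxygen. They were taken by name, with earlier results of these data known. Each was read from the probe sets that the platform annotation gives to its symbol alone. The probe set of the highest mean over all arrays stood for the gene. Of the 41 genes, 36 were measured in this way among the 8252 genes of the table. Gpi1, Eno1, Slc16a3, Egln3 and Bnip3l were not analysed here, because no probe set was annotated to their symbol alone. Gapdh was measured through the array's own control probe set, and 22 of the 36 genes had a mean log2 level over the arrays above 6.85, the 95th percentile of 34 negative control probe sets.

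Male B6 mice of 6 weeks received serum of K/BxN mice, which carries autoantibodies and transfers joint inflammation, and 49 Affymetrix arrays followed them by the day after the initial injection. Cells of the synovial fluid, the liquid of the joint space, were sampled on days 3, 12 and 18 (3 arrays each) and day 7 (4). Whole ankle was sampled on days 0 and 7 (4 arrays each), day 1 (2) and days 3, 12 and 18 (3 each). Blood leukocytes were sampled at days 0, 1, 3, 7 and 12 (3 arrays each) and at day 18 (2). All values below are log2 of the authors' RMA intensities, and a fold is given only where both group means lay above 6.85. The labels describe several preparations of fluid cells, name SDS and urea for ankle RNA in the descriptions and Trizol in the protocol field, and call only the blood samples biological replicates, so p-values may measure technical spread. The title of 1 ankle array of day 0 (replicate 2) and the short name in its description differ. Ankle replicate 1 of days 0, 7 and 12 carried liver transcripts, with the albumin gene Alb at 8.95, 8.41 and 10.65. Ankle replicate 1 of day 1 is counted with them below, although its Alb of 6.39 lay under 6.85. The beta-actin ratio is here the log2 difference of the control probe sets near the 3′ and 5′ ends and grows as RNA shortens. It lay between 1.59 and 3.61 in fluid, 2.73 and 4.25 in ankle and 1.44 and 3.38 in blood. In such bulk samples fewer cells of a type and less RNA per cell cannot be told apart.

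Glycolysis splits glucose into pyruvate with a small gain of ATP and needs no oxygen, and lactate dehydrogenase then turns pyruvate into lactate. The transcription factor HIF couples this pathway to oxygen. Its alpha subunits, Hif1a and Epas1, are hydroxylated by Egln enzymes when oxygen is present, bound by the Vhl protein and destroyed. When oxygen is short they pair with Arnt at short DNA motifs and raise transcription of glucose transporters, glycolytic enzymes and genes of vessel growth, iron handling and collagen folding. Neutrophils and activated macrophages draw heavily on glycolysis, and the inflamed joint is a well-known site of low oxygen. The regulation of Hif1a is largely one of protein stability, which an array of RNA does not read.

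The core of the HIF binding motif was looked for in promoter windows of RefSeq (GRCm38.p6) that run from 250 bases before to 50 bases after a gene's start. The core was spelled ACGTG or GCGTG and was searched on both strands, and ACGTG is also part of the E box CACGTG, to which other factors bind. Windows of 32 of the 36 measured genes were found in the table. At least 1 match was present in 35 of their 44 windows (79.5%), against 14380 of all 32851 windows (43.8%), and CACGTG was present in 11.4% against 7.15%. Both spellings contain the letters CG, and the windows were not matched for base content. The difference in shares was not tested. The 250 bases before the start are shown for Hif1a, Pgam1 and Ddit4, which rose in the arthritic ankle. They are also shown for Pgk1 and Ldha, which were chosen after their values in fluid cells had been seen. Where a gene had several windows, the one with most matches is shown. For Ldha that whole window held 7 matches, while another held 2. The windows of Hif1a and Ldha lie inside the annotated genes, which begin at 73901324 and 46842274, so the start meant there is a later one. Hmox1, which also rose in ankle, is named only. Capitals mark each match on either strand, with CACGTG in capitals where the match lies in it, and every sequence runs 5′ to 3′ on the strand of its gene.
Hif1a, chr12:73907617-73907866, plus strand: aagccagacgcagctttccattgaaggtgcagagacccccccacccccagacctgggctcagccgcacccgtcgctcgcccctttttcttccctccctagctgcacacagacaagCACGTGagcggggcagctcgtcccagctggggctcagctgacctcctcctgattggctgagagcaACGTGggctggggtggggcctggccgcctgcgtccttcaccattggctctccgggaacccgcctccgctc
Pgam1, chr19:41911621-41911870, plus strand: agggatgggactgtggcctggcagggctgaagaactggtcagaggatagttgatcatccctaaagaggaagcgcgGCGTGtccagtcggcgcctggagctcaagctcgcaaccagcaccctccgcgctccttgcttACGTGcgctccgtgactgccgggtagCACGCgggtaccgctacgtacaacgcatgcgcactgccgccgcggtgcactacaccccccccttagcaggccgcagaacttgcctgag
Ddit4, chr10:59951771-59952020, minus strand: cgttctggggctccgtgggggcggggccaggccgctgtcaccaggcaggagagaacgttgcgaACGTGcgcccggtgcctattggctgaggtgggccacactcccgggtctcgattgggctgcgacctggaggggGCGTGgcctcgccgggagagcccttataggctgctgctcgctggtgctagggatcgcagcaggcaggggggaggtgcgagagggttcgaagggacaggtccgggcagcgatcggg
Pgk1, chrX:106186850-106187099, plus strand: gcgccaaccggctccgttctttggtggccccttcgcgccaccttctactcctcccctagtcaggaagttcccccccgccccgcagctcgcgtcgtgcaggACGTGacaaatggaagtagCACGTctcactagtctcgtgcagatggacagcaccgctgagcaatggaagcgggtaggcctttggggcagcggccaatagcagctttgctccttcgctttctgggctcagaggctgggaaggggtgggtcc
Ldha, chr7:46845554-46845803, plus strand: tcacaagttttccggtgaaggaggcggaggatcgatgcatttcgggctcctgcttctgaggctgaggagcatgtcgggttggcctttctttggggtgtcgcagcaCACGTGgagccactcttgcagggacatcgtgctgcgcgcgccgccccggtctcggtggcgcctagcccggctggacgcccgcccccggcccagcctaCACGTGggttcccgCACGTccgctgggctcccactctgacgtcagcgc
Such a match is a description of the letters and was not tested as a binding site.

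The first question was how these genes changed in the ankle as arthritis developed. Hif1a was the member whose level moved most, with 4 of the 36 genes higher at day 7 than at day 0 and 0 lower. The other risers were Ddit4, a stress-induced brake on mTOR signalling, Hmox1, which breaks down haem, and Pgam1, the mutase of the lower glycolytic pathway. Calls were made at an adjusted p under 0.05, by limma with Benjamini-Hochberg adjustment over all 8252 genes, and 6.73% of all genes passed at day 7 (3.09% higher and 3.64% lower). At day 12, 2 members were higher and 0 lower (3.24% of all genes called, 1.87% higher and 1.37% lower), and at day 18 again 2 were higher and 0 lower (2.01%, with 1.13% higher and 0.885% lower). None of the 36 passed at day 1 (0%) or day 3 (0.23%, with 0.182% higher and 0.0485% lower), where 0 and 4 members had an unadjusted p under 0.05. Between day 18 and day 7 again 0 passed (0.0606% of all genes), and 2 members had an unadjusted p under 0.05.

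Hif1a encodes the alpha subunit through which HIF senses oxygen. Its log2 level was 9.59, 10.52, 9.99 and 10.36 in the ankles of day 0, 10.65 and 10.42 at day 1, and 10.99, 10.73 and 11.02 at day 3. It was 11.09, 11.32, 11.84 and 11.59 at day 7, 11.14, 11.53 and 12.13 at day 12, and 11.41, 11.27 and 11.65 at day 18. Every ankle array from day 3 on lay above every array of day 0. The rise at day 7 was 1.35 ± 0.23 on the log2 scale (SE), 2.54-fold, with an adjusted p of 0.00142. Day 12 gave 1.49 ± 0.25 (2.80-fold, adjusted p 0.00182) and day 18 gave 1.33 ± 0.25 (2.51-fold, adjusted p 0.00697), against the same 4 arrays of day 0. At day 3 the difference of 0.80 ± 0.25 did not pass (adjusted p 0.293). A second probe set of Hif1a differed by 1.33, 1.48 and 1.19 at days 7, 12 and 18. The rise at days 7 and 12 passed in every fit that left out 1 array, while that at day 18 did not pass without ankle day 18 replicate 3 (adjusted p 0.0642).

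In blood leukocytes Hif1a read 10.58, 10.26 and 10.16 at day 7, against 10.01, 10.39 and 10.18 at day 0, and these groups overlapped. The ankle change at day 7 exceeded the blood change by 1.21 ± 0.32 when the difference itself was tested (adjusted p 0.0368), and 1 of the 36 genes passed this test where 2.28% of all genes did. This call was lost in 9 of 14 fits that left out 1 array, with adjusted p between 0.0552 without blood day 0 replicate 1 and 0.114 without blood day 7 replicate 3. Fits without ankle day 0 replicates 1 and 3, ankle day 7 replicates 3 and 4, blood day 0 replicates 2 and 3 or blood day 7 replicate 2 also lost it, as did the mean of both Hif1a probe sets (adjusted p 0.0610).

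Ddit4 read 9.99, 10.44, 10.60 and 9.89 in the ankles of day 7, against 9.17, 9.51, 9.82 and 9.13 at day 0. The groups were separate by a narrow margin, and the difference was 0.82 ± 0.20 (1.77-fold, adjusted p 0.0180). At day 12 its arrays read 10.26, 10.66 and 10.59, which is 1.1 ± 0.22 above day 0 (2.14-fold, adjusted p 0.00745). The day 7 call did not hold without ankle day 0 replicate 1 (adjusted p 0.0525) or 4 (0.0697) or ankle day 7 replicate 2 (0.0575) or 3 (0.0733), and that of day 12 did not hold without ankle day 12 replicate 2 (0.0590). With the beta-actin ratio in the model the adjusted p was 0.0964 at day 7 and 0.0937 at day 12, and 1 fit of all 49 arrays gave 0.0860 at day 7.

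Hmox1 read 8.48, 8.75, 8.54 and 8.83 at day 7, against 8.06, 7.88, 8.0 and 8.38 at day 0. The lowest array of day 7 lay just above the highest of day 0, and the rise was 0.57 ± 0.14 (1.48-fold, adjusted p 0.0171). At day 18 the ankles read 8.62, 8.85 and 8.76, a rise of 0.66 ± 0.15 (1.58-fold, adjusted p 0.0255). At day 7 the call was lost without ankle day 0 replicate 3 (adjusted p 0.0557) or ankle day 7 replicate 2 (0.0524) or 4 (0.0589), and at day 18 without ankle day 0 replicate 1 (0.0506) or 3 (0.0811) or any 1 of the day 18 arrays (0.0595, 0.133 and 0.132 without replicates 1, 2 and 3). The beta-actin ratio as a covariate gave 0.0918 at day 7 and 0.0773 at day 18, 1 fit of all 49 arrays gave 0.0562 and 0.0675, and the fit without the arrays with liver transcripts gave 0.0505 at day 18.

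Pgam1 moves the phosphate of phosphoglycerate to the neighbouring carbon. It read 9.67, 9.85, 9.26 and 9.68 in the ankles of day 7, against 9.01, 9.13, 9.04 and 8.87 at day 0. The groups did not overlap, and the rise was 0.60 ± 0.14 (1.52-fold, adjusted p 0.0124). It was the only enzyme of glycolysis among the members called in ankle in the fits reported here. Without ankle day 0 replicate 4 its adjusted p was 0.0505, and without the arrays that carried liver transcripts it was 0.0506, while 1 fit of all 49 arrays gave 0.0596. Its neighbour in the pathway Pgk1, the first step that yields ATP, differed by 0.69 ± 0.23 at day 7 and did not pass (adjusted p 0.0872).

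**Figure D1:**
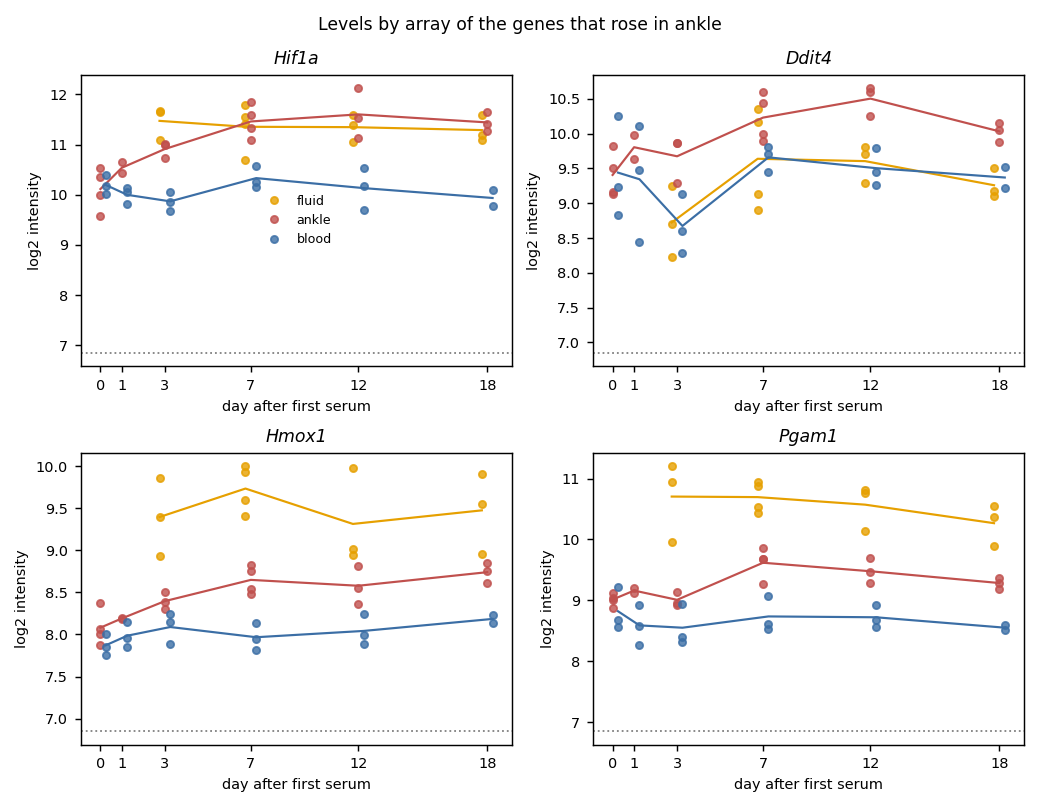
Log2 intensity of Hif1a, Ddit4, Hmox1 and Pgam1 in each array (points) and the mean of each day (lines) in fluid, ankle and blood, by day after the initial serum, with the dotted line at 6.85, the 95th percentile of the negative controls. In ankle Hif1a reads 11.09 to 11.84 at day 7 and 9.59 to 10.52 at day 0, while in blood it reads 10.16 to 10.58 at day 7 and 10.01 to 10.39 at day 0.

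The rise of these genes did not extend to the members as a group. The median difference of the 36 was 0.06 at day 7, against 0.00 over all genes, and 22 of the 36 were above 0. Targets of HIF that did not pass included the glucose transporter Slc2a1 (0.18 ± 0.11), the hexokinase Hk2 (0.42 ± 0.25), the lactate dehydrogenase Ldha (0.23 ± 0.25), the vessel growth factor Vegfa (0.14 ± 0.12) and Pfkfb3 (0.04 ± 0.12), whose product activates phosphofructokinase. The 95% interval of the difference was -0.06 to 0.41 for Slc2a1, -0.30 to 0.77 for Ldha and -0.22 to 0.29 for Pfkfb3, so a change past 0.77 in either direction was outside the interval for these 3 genes. Ndrg1, a hypoxia and differentiation gene, gave -0.74 ± 0.23, with its arrays of day 7 (10.71, 10.41, 10.47 and 9.53) all below those of day 0 (10.94, 11.39, 10.96 and 10.79), and missed the threshold (adjusted p 0.0641). Slc2a1, Hk2 and Vegfa lay under the negative control level in every ankle array, so that their differences are measured close to background.

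Markers of several cell types moved in the same ankles. The mean level of 10 neutrophil markers was 7.87 at day 7 (7.70 to 8.18 over the arrays), against 6.22 at day 0 (6.11 to 6.30), with 5 of the 10 higher, and it was 7.69 at day 12 and 8.0 at day 18. At day 7, 2 of 11 markers of monocytes and macrophages and 2 of 10 of fibroblasts were higher. The mean level of 13 skeletal muscle markers was 8.23 at day 7 (7.35 to 9.06), against 8.86 at day 0 (8.33 to 9.32), with 0 of 13 called. That of 6 adipocyte markers was 6.82 at day 7 (6.18 to 7.21), against 7.53 at day 0 (7.06 to 7.91). It was 6.73 at day 12 and 6.36 at day 18. The beta-actin ratio averaged 3.54 at day 7 and 2.99 at day 0. The part of these shifts in the rise of Hif1a, Ddit4, Hmox1 and Pgam1 was not tested.

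Other genes of the same pathways moved both ways in ankle. Among 23 measured further hypoxia targets, 2 were higher and 3 lower at day 7. Angptl4, a secreted inhibitor of lipoprotein lipase, was 1.73 ± 0.27 higher (adjusted p 7.0e-04), with 1.51 ± 0.29 at day 12 and 1.22 ± 0.29 at day 18, and its ankle change exceeded that of blood by 2.03 ± 0.38 at day 7 (adjusted p 0.00217). Lox, which cross-links collagen, was higher at day 7 by 1.52. Selenbp1 (-1.34 ± 0.21, adjusted p 5.5e-04), Nupr1 (-1.52 ± 0.27, adjusted p 0.00173) and Cp, the ferroxidase ceruloplasmin (-1.74), were lower. Of 7 genes of the glycogen branch, Pgm2 was higher (0.75 ± 0.20, adjusted p 0.0308) and Ugp2 lower (-0.69 ± 0.19, adjusted p 0.0394). Of 8 tissue forms of glycolytic enzymes, only Bpgm, the red cell enzyme that makes the regulator of haemoglobin's oxygen affinity, passed (-1.35 ± 0.32, adjusted p 0.0141), and 2 of 7 red cell markers were lower with it. None of the 5 genes of the pentose phosphate pathway, 7 of pyruvate dehydrogenase and its kinases or 5 of glucose synthesis passed at day 7. Nor did any of 9 genes listed as other oxygen sensing and related genes, not all of which need sense oxygen. At day 12 Pgm2 (0.92 ± 0.22, adjusted p 0.0246) was again higher and Selenbp1 (-1.18, adjusted p 0.00475) lower, and at day 18 Selenbp1 (-1.21, adjusted p 0.00589) and Cp (-1.71, adjusted p 0.0280) were lower, against the same arrays of day 0.

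**Figure D2:**
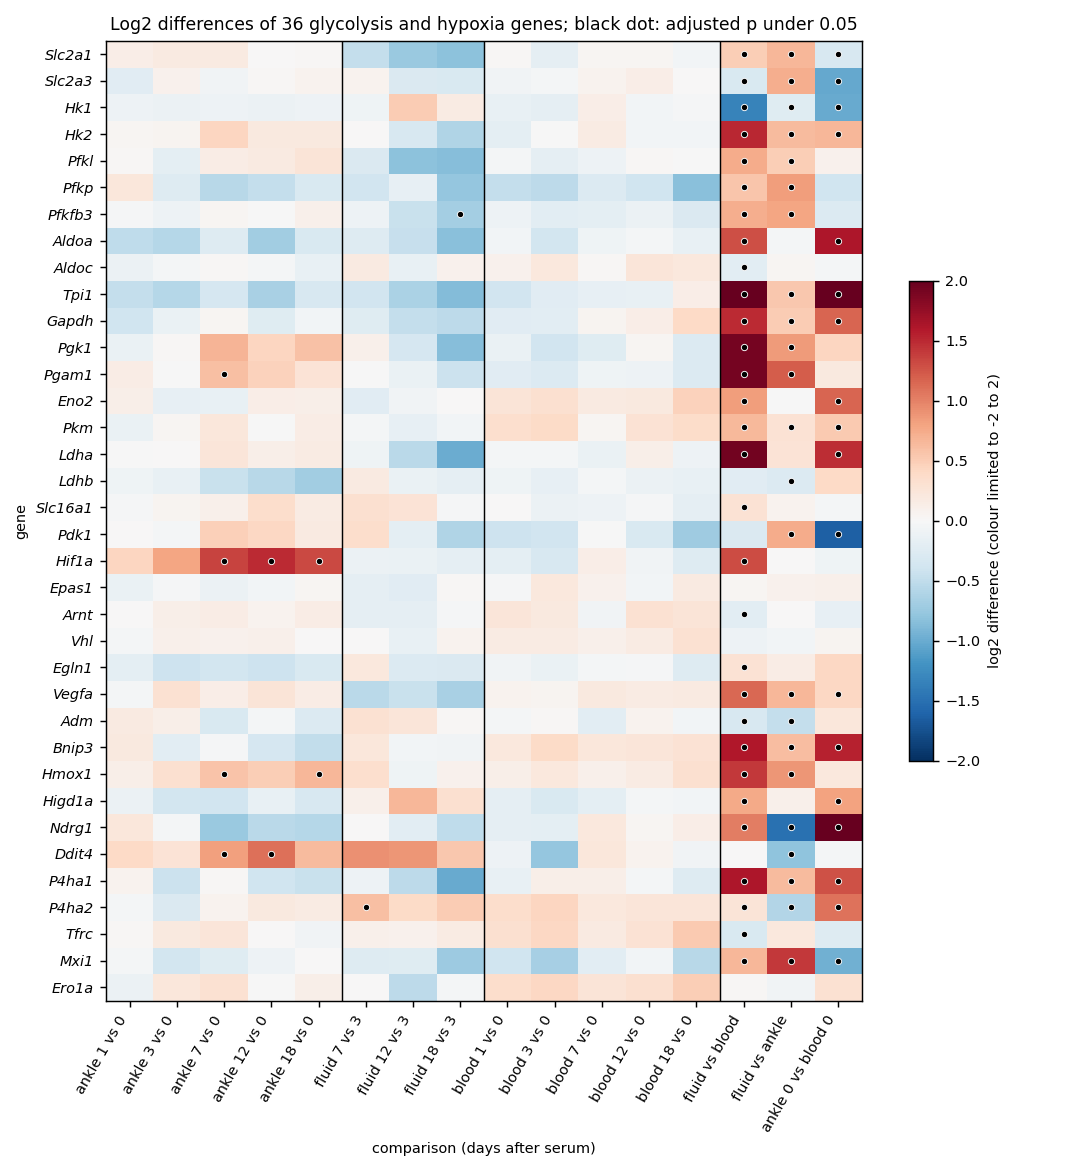
Log2 differences of the 36 measured genes (rows) in 16 comparisons (columns), within ankle, fluid and blood by day and between tissues, with a black dot where the adjusted p of limma was under 0.05. The dots within ankle lie on Hif1a, Ddit4, Hmox1 and Pgam1, the fluid columns hold 1 dot on P4ha2 and 1 on Pfkfb3, the blood columns hold 0, and the columns between tissues hold 30, 23 and 18.

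The second question was whether the same genes changed among blood leukocytes. None of the 36 passed at day 1, 3, 7, 12 or 18 against day 0, and 0 of 8252 genes did (0% at each day). Members with an unadjusted p under 0.05 numbered 3, 3, 1, 1 and 6 at these days, beside 589, 1702, 168, 513 and 1694 of all genes. Hif1a differed by -0.20, -0.33, 0.14, -0.06 and -0.26 at days 1, 3, 7, 12 and 18. At day 7 the 95% intervals were -0.30 to 0.57 for Hif1a, -0.98 to 0.72 for Ldha and -0.51 to 0.12 for Pfkfb3. The interval of Ldha shows how little 3 arrays a day could exclude for this gene, which read 9.90, 8.83 and 9.41 at day 0 alone. The beta-actin ratio of these day 0 arrays was 1.83, 2.58 and 1.97, and its part in the spread of Ldha was not tested.

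Fluid cells could be followed from day 3, when synovial fluid was first sampled. At day 7, 1 member was higher and 0 lower than at day 3 (2.56% of all genes called, 2.17% higher and 0.388% lower). This was P4ha2, a subunit of the enzyme that hydroxylates prolines of collagen, which read 7.60, 7.55, 7.48 and 7.24 at day 7, against 6.99, 6.81 and 6.79 at day 3. The groups did not overlap and the rise was 0.60 ± 0.14 (1.52-fold, adjusted p 0.0309), with 2 of the day 3 arrays under the negative control level. A second P4ha2 probe set differed by 0.92. The mean of 10 fibroblast markers was 8.88 in fluid at day 7 (8.51 to 9.20), against 7.01 at day 3 (6.78 to 7.36), with 8 of 10 higher, and Lox rose with them by 2.85 ± 0.28 (adjusted p 3.7e-05), as did Angptl4 by 1.72 ± 0.22 (adjusted p 3.1e-04). The part of the fibroblast shift in the P4ha2 rise was not tested. The call was lost without fluid day 3 replicate 2 (adjusted p 0.150) or 3 (0.135) or fluid day 7 replicate 1 (0.0630), 2 (0.0742) or 3 (0.0770), and without the 4 fluid arrays whose labels give another preparation (0.0687). With the beta-actin ratio, which averaged 2.77 at day 7 and 2.05 at day 3, the adjusted p was 0.101.

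Later in the fluid, 0 members passed at day 12 (2.7% of all genes called, 2.42% higher and 0.279% lower) and 1 passed at day 18, in the lower direction (3.19%, with 2.28% higher and 0.909% lower). Pfkfb3 read 7.46, 7.52 and 7.61 at day 18, against 8.27, 8.13 and 8.23 at day 3. All 3 late arrays lay below all early ones, and the fall was -0.68 ± 0.17 (adjusted p 0.0416), or 1.60-fold. The day 7 arrays of Pfkfb3 read 8.26, 8.34, 8.04 and 7.82 and those of day 12 read 7.63, 7.73 and 7.92, so the day means lay in order of time. The call did not hold in any fit without 1 of the 6 arrays, with adjusted p from 0.10 without fluid day 18 replicate 3 to 0.183 without fluid day 18 replicate 1 (0.107, 0.110 and 0.105 without fluid day 3 replicates 1, 2 and 3, and 0.128 without fluid day 18 replicate 2). With the beta-actin ratio, which averaged 2.64 at day 18 and 2.05 at day 3, the adjusted p was 0.145.

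Most other members also read lower at day 18 than at day 3, without passing the test. The median difference of the 36 was -0.24, against -0.01 over all genes, 11 of the 36 were above 0, and 13 had an unadjusted p under 0.05, beside 1247 of 8252 genes. Slc2a1 gave -0.82 ± 0.22 (adjusted p 0.0523), with 5.97, 6.29 and 6.52 at day 18 against 6.82, 7.13 and 7.29 at day 3. Tpi1 gave -0.87 ± 0.25, P4ha1 -1.0 ± 0.29, Aldoa -0.83 ± 0.27, Ldha -0.99 ± 0.36 and Vegfa -0.65 ± 0.22, with adjusted p between 0.0766 and 0.170. Hif1a differed by -0.18 ± 0.29 and Hk2 by -0.60 ± 0.31. Second probe sets differed from the chosen ones for Aldoa, with 0.00 where the chosen one gave -0.83 and mean levels of 9.68 at both days, and for Pkm, with -1.22 where the chosen one gave -0.05. Among the further lists, Rpia of the pentose phosphate pathway was lower at day 18 (-0.71 ± 0.17, adjusted p 0.0279), while Lox (2.79 ± 0.30, adjusted p 4.2e-05), Cp (2.22 ± 0.34, adjusted p 0.00130) and Angptl4 (1.29 ± 0.24, adjusted p 0.00528) were higher. Fibroblast markers averaged 9.06 in fluid at day 18 (9.04 to 9.07), against 7.01 at day 3 (6.78 to 7.36), and their part in these differences was not tested. The beta-actin ratio was 3.61, 2.30 and 2.02 in the arrays of day 18, against 2.39, 2.17 and 1.59 at day 3. Replicate 1, of the highest ratio, read lowest at day 18 for Slc2a1, Tpi1, Ldha and Vegfa, but not for P4ha1 or Aldoa. The part of RNA length in the lower readings of day 18 was not tested.

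**Figure D3:**
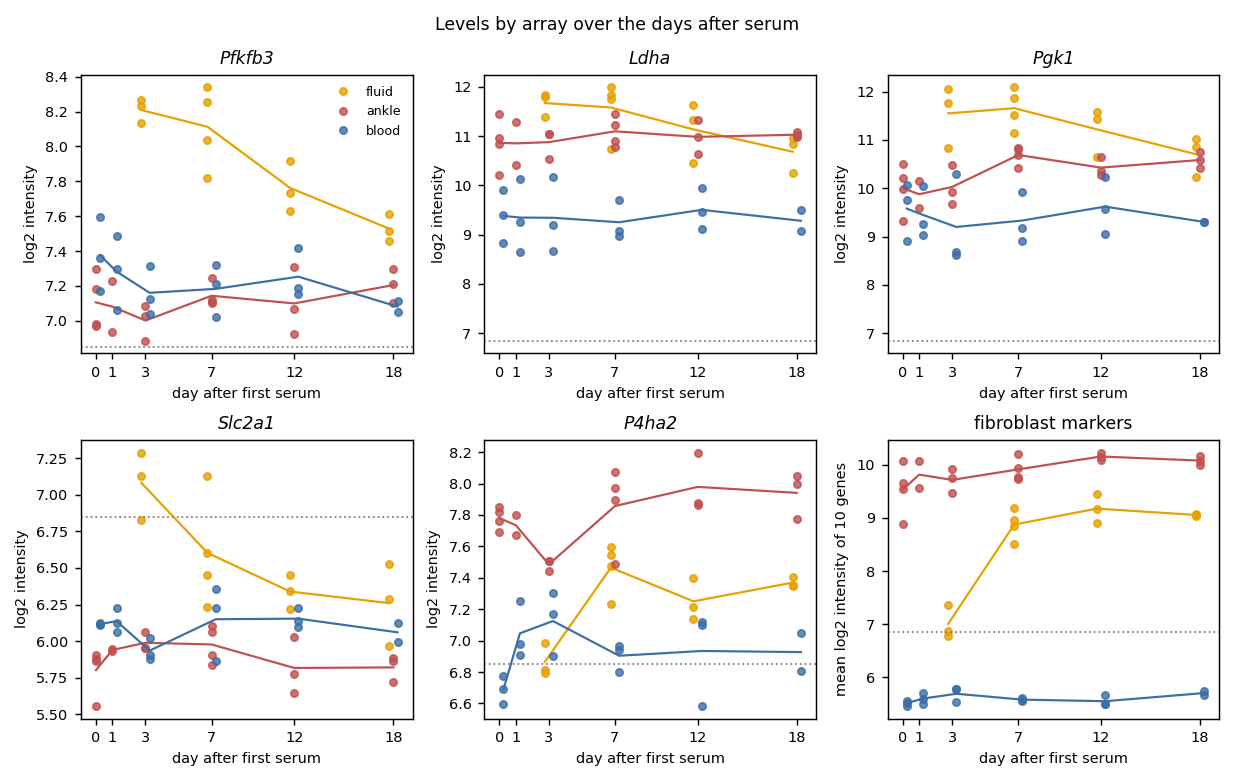
Log2 intensity of Pfkfb3, Ldha, Pgk1, Slc2a1 and P4ha2 in each array, and the mean of 10 fibroblast markers, by day after the initial serum in fluid, ankle and blood, with lines through the day means and a dotted line at 6.85. In fluid Pfkfb3 reads 7.46 to 7.61 at day 18 and 8.13 to 8.27 at day 3, and the fibroblast markers average 9.06 at day 18 and 7.01 at day 3.

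Fluid cells were then set against blood leukocytes of the same days, as the mean of the differences at days 3, 7, 12 and 18, to compare cells of the joint space with those in circulation. Most members, of glycolysis and hypoxia response together, stood higher in fluid cells: of the 36 members 24 were higher and 6 lower. Over all genes 58.8% were called (24.9% higher and 34% lower), and the median difference was 0.66 for the members and -0.08 for all genes. At each of the 4 days between 26 and 28 of the 36 members had a higher mean in fluid, and the median of the members was 0.89 at day 3, 0.60, 0.46 and 0.44 on the later days. All arrays of fluid were separate from all arrays of blood for 15 of the 36 genes, beside 960 of 8252 genes (11.6%). Tissue and preparation cannot be told apart in this comparison.

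For the steps from the trioses to pyruvate, 5 of 5 measured members were higher in fluid, while the tissue forms Eno3 and Pklr of the enolase and pyruvate kinase steps, given with the further genes, were lower. Pgam1 ranged from 9.89 to 11.21 with a median of 10.55 over 13 fluid arrays, against 8.31 to 9.07 with a median of 8.59 over 11 blood arrays. The ranges were separate, and the difference was 1.92 ± 0.14 (3.79-fold, adjusted p 5.3e-12). Gapdh, the dehydrogenase often used as a loading standard, lay between 12.00 and 12.93 (median 12.64) in fluid and between 10.61 and 11.54 (median 10.95) in blood, a difference of 1.49 ± 0.10 (2.82-fold, adjusted p 7.2e-13). Its other control probe sets gave 1.64 near the 5′ end and 1.67 in the middle. Pgk1 was higher by 1.92 ± 0.22 (3.78-fold), and its lowest fluid array at 10.22 lay just under its highest blood array at 10.30. Pkm, whose product makes pyruvate, was higher by 0.65 ± 0.09 (1.57-fold), and by 1.66 with its other probe set, and the enolase Eno2 by 0.84 ± 0.09, with 0 fluid and 0 blood arrays above the negative controls.

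The hexose steps split between enzyme forms. Tpi1, which interconverts the trioses, lay between 9.54 and 10.96 (median 10.35) in fluid and between 7.5 and 7.96 (median 7.63) in blood. No fluid array came near the blood range, and the difference of 2.64 ± 0.09 (6.23-fold, adjusted p 4.1e-19) had the smallest p among the members. The hexokinases moved in opposite directions. Hk1, the constitutive form, ranged from 7.59 to 8.69 (median 8.01) in fluid, against 8.87 to 9.71 (median 9.35) in blood, a difference of -1.33 ± 0.10 (2.51-fold lower, adjusted p 5.1e-12). Hk2, the inducible form, ranged from 5.68 to 7.21 (median 6.61) in fluid, against 4.66 to 5.42 (median 4.85) in blood, which is 1.51 ± 0.13 higher (adjusted p 3.2e-10). Only 3 of the 13 fluid arrays and 0 of the 11 blood arrays of Hk2 exceeded the negative controls, and a second Hk2 probe set, lower still, gave -0.11.

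Phosphofructokinase commits sugar to glycolysis, and both members that encode it were higher in fluid, Pfkl by 0.75 ± 0.12 (adjusted p 1.3e-05) and Pfkp by 0.56 ± 0.15 (adjusted p 0.00215). The muscle form Pfkm, which is no member, did not pass (-0.02 ± 0.07, adjusted p 0.802) at levels under 6.85. The activator gene Pfkfb3 read 7.46 to 8.34 (median 7.92) in fluid and 7.02 to 7.42 (median 7.15) in blood. The ranges did not overlap, and Pfkfb3 was 0.73 ± 0.08 higher (1.66-fold, adjusted p 5.5e-09). Aldoa, which splits the hexose, was 1.28 ± 0.12 higher (2.43-fold, adjusted p 1.1e-09), while Aldoc was lower (-0.22 ± 0.07, adjusted p 0.0103) under the negative control level. Ldha ranged from 10.25 to 11.99 (median 11.38) in fluid and from 8.66 to 10.17 (median 9.19) in blood, and was 1.92 ± 0.20 higher (3.79-fold, adjusted p 8.0e-09). Ldhb and Pdk1, a mitochondrial kinase that inhibits pyruvate dehydrogenase, did not pass (-0.22 ± 0.10 and -0.29 ± 0.16).

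Among transporters the differences were at most 0.50 in size. Slc2a1 was 0.50 ± 0.09 higher in fluid (adjusted p 2.8e-05), the monocarboxylate carrier Slc16a1 0.29 ± 0.07 higher (adjusted p 0.00135), and the glucose transporter Slc2a3 was lower (-0.30 ± 0.12, adjusted p 0.0310). Slc2a1 exceeded the negative controls in 3 of 13 fluid and 0 of 11 blood arrays, and Slc16a1 in 0 of either. The call of Slc2a3 was lost in 9 of 24 fits without 1 array, with adjusted p up to 0.0740 without blood day 18 replicate 2, and that of Slc16a1 with a floor on low values, where its difference was 0.

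HIF itself and its partners differed in direction. Hif1a read 10.69 to 11.78 (median 11.41) in fluid and 9.69 to 10.58 (median 10.10) in blood. The ranges did not overlap, and Hif1a was 1.3 ± 0.13 higher (2.46-fold, adjusted p 1.6e-09). Egln1, the hydroxylase that marks it for destruction, was 0.29 ± 0.11 higher (1.23-fold, adjusted p 0.0221), and Arnt was lower (-0.21 ± 0.07, adjusted p 0.0169) near background. The Egln1 call was lost without fluid day 3 replicate 3 (0.0507) or blood day 18 replicate 2 (0.0505), and the Arnt call without blood day 18 replicate 1 (0.0620). Epas1 and Vhl did not pass, at levels under 6.85.

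Of the other HIF targets, P4ha1, the catalytic partner for collagen prolines, was 1.62 ± 0.13 higher in fluid (adjusted p 1.8e-11) and P4ha2 0.26 ± 0.07. Bnip3, a receptor for the removal of mitochondria, was 1.60 ± 0.18 higher, and Higd1a 0.75 ± 0.14. Of 13 fluid arrays, 10 exceeded the negative controls for P4ha1, 5 for Bnip3 and 2 for Higd1a, while 0 of 11 blood arrays did for these genes. Hmox1 read at least 8.93 in every fluid array (median 9.56) and at most 8.25 in every blood array (median 8.14). With separate ranges it was 1.41 ± 0.13 higher (2.66-fold, adjusted p 4.4e-10), and Tfrc, the transferrin receptor, was lower (-0.30 ± 0.12, adjusted p 0.0301). The Tfrc call was lost in 6 of 24 fits without 1 array, with adjusted p up to 0.0813 without blood day 18 replicate 1. Ndrg1 was 1.02 ± 0.10 higher (2.03-fold) and Mxi1, an antagonist of Myc, 0.66 ± 0.20 higher (1.58-fold). Vegfa was 1.15 ± 0.09 higher (adjusted p 1.1e-11) and the vasodilator peptide gene Adm was lower (-0.33 ± 0.08, adjusted p 0.00110), both at levels under 6.85. Ddit4 and Ero1a differed by 0.00 ± 0.20 and 0.03 ± 0.12, and a second Ero1a probe set by 0.94.

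**Figure D4:**
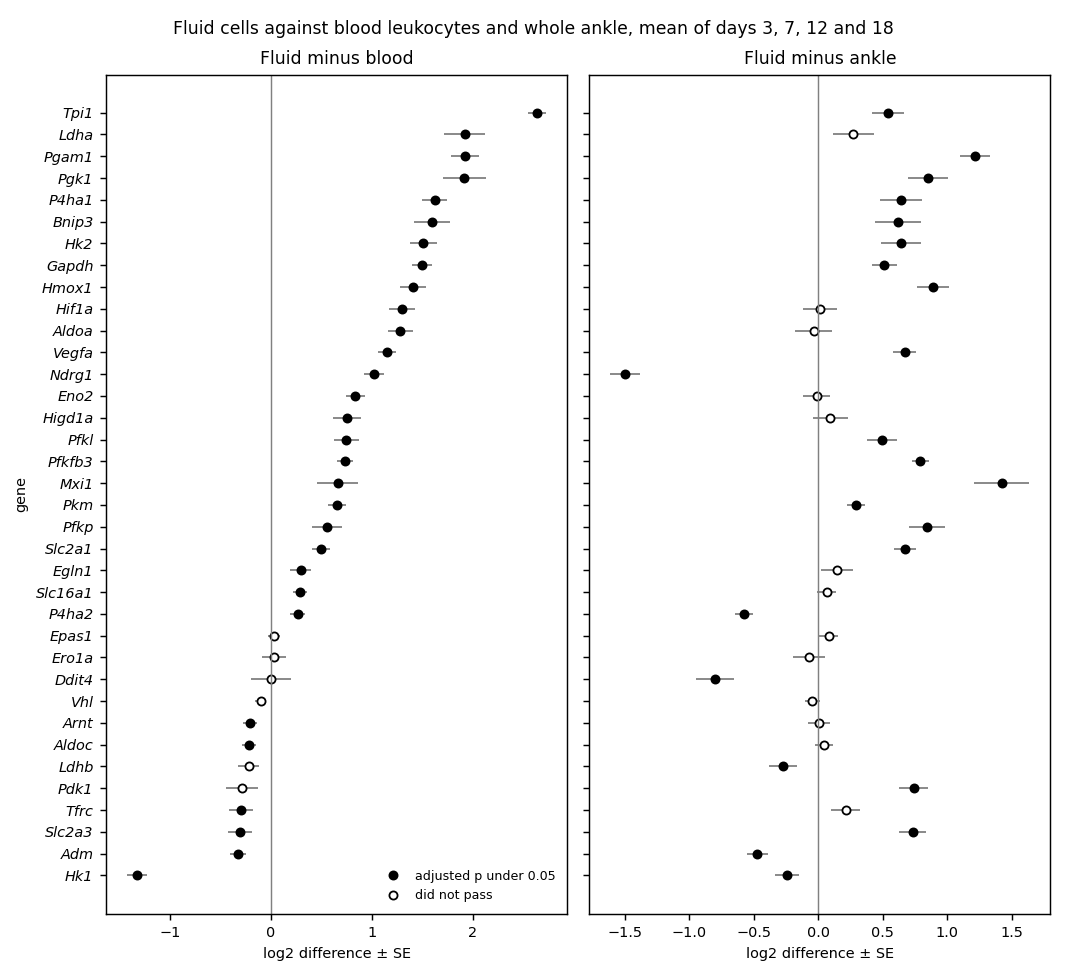
Log2 difference ± SE of the 36 genes for fluid against blood (left) and fluid against ankle (right), as the mean of days 3, 7, 12 and 18, with filled points where the adjusted p of limma was under 0.05. Tpi1 stands at 2.64 and Hk1 at -1.33 against blood, and Mxi1 at 1.42 and Ndrg1 at -1.50 against ankle.

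The cell makeup of the samples differed with tissue. The mean level of 11 markers of monocytes and macrophages lay between 10.07 and 10.35 over the days in fluid and between 7.12 and 7.26 in blood at days 3 to 18, with 11 of 11 called higher in fluid. Neutrophil markers averaged 9.33 to 9.70 in fluid and 8.19 to 8.98 in blood. Fibroblast markers averaged 7.01, 8.88, 9.18 and 9.06 in fluid at days 3, 7, 12 and 18, against 5.55 to 5.71 in blood, with 9 of 10 higher and 1 lower in fluid. Markers of B cells (7 of 7 lower) and T cells (7 of 8 lower) averaged 5.73 to 5.96 and 5.28 to 5.31 in fluid, against 8.40 to 8.67 and 7.11 to 7.48 in blood. Red cell markers were lower in fluid for 5 of 7, and Bpgm differed by -3.80 ± 0.29 (adjusted p 1.2e-11). The part of these differences in the results on glycolysis, P4ha1 and P4ha2 was not tested.

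Further genes of the pathways differed in both directions. Of 7 genes of the glycogen branch 5 were higher in fluid than in blood and 0 lower, led by Ugp2 (1.53 ± 0.12, adjusted p 2.7e-11), Pgm1 (0.80 ± 0.10, adjusted p 8.1e-08) and Pgm2 (0.69 ± 0.10, adjusted p 1.9e-06). Of 5 pentose phosphate genes Pgd was higher (0.49 ± 0.10, adjusted p 2.1e-04) and Rpia lower (-1.19 ± 0.12, adjusted p 4.1e-09). Among 7 genes around pyruvate dehydrogenase 3 were higher, Dlat by 0.43 ± 0.08 (adjusted p 8.0e-05), Pdk3 by 0.60 ± 0.18 and Pcx by 0.21 ± 0.07, and 0 lower. Tissue forms of glycolytic enzymes were lower for 5 of 8 and higher for 0, with Eno3 at -0.80 ± 0.07 and Pklr at -0.21 ± 0.07 after Bpgm. Glucose synthesis genes were lower for 3 of 5, with Pck2 at -0.41 ± 0.07, Fbp1 at -0.22 ± 0.07 and G6pc at -0.25 ± 0.09. Of 9 genes listed as other oxygen sensing and related genes 5 were lower and 0 higher. Arntl (-0.78 ± 0.11, adjusted p 1.5e-06), Siah2 (-0.29 ± 0.08) and Siah1a (-0.30 ± 0.09) came first. The list does not show that Arntl senses oxygen. Of 23 further hypoxia targets 10 were higher and 6 lower, and Cp (2.81 ± 0.13), Lox (2.36 ± 0.12) and Nupr1 (1.99 ± 0.14) had the smallest p.

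Against whole ankle of the same days, 17 of the 36 members were higher in fluid cells and 6 lower, where 38.1% of all genes were called (18.7% higher and 19.4% lower). The median difference was 0.24 for the members and -0.04 for all genes, and the members' median was 0.50, 0.37, 0.22 and 0.12 at days 3, 7, 12 and 18. The beta-actin ratio was lower in fluid than in ankle, and with it in the model 11 members passed instead of 23, where 17.4% of all genes passed instead of 38.1%. Pgk1 (0.17, adjusted p 0.693), Tpi1 (0.09, 0.828), Gapdh (0.17, 0.535), Bnip3 (0.18, 0.779), Hk2 (0.01, 0.985), Pfkl (0.38, 0.225), P4ha1 (0.51, 0.258), Pkm (0.27, 0.124), Mxi1 (0.57, 0.260), Pdk1 (0.47, 0.0852), Hmox1 (0.49, 0.0776) and Hk1 (-0.01, 0.984) lost their calls in that fit. The results below are from the model without it.

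Pfkfb3 was 0.79 ± 0.07 higher in fluid cells (1.73-fold, adjusted p 1.4e-10), with 7.46 to 8.34 in fluid and 6.89 to 7.31 in ankle, and these ranges were separate. Pgam1 was 1.21 ± 0.12 higher (2.32-fold, adjusted p 1.1e-09), with 9.89 to 11.21 in fluid and 8.93 to 9.85 in ankle. Slc2a1 was 0.67 ± 0.08 higher (adjusted p 1.6e-07) and Slc2a3 0.73 ± 0.11 higher (adjusted p 1.7e-06), both near background. Vegfa was 0.67 ± 0.09 higher (adjusted p 4.7e-07) under the negative control level, and Adm was lower (-0.47 ± 0.08, adjusted p 3.3e-05). Hmox1 was 0.89 ± 0.12 higher (1.85-fold, adjusted p 7.2e-07). As the mean of days 3, 7, 12 and 18, Hif1a did not differ between fluid and arthritic ankle past the threshold (0.01 ± 0.13, adjusted p 0.956). Neither did Ldha (0.27 ± 0.16) or Aldoa (-0.04 ± 0.14). The mean covers days of opposite sign. At these days fluid minus ankle was 0.56, -0.11, -0.25 and -0.15 for Hif1a. It was 0.79, 0.48, 0.15 and -0.35 for Ldha, and 0.46, -0.09, 0.13 and -0.64 for Aldoa. The single days were not tested.

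Hexose enzymes again went both ways: Hk2 (0.64 ± 0.15, second probe set -0.01), Pfkl (0.49 ± 0.12), Pfkp (0.84 ± 0.14) and Tpi1 (0.54 ± 0.12) were higher, while Hk1 was lower (-0.24 ± 0.09, adjusted p 0.0443). For pyruvate, Pdk1 was 0.74 ± 0.11 higher and Ldhb lower (-0.28 ± 0.11, adjusted p 0.0439). The Hk1 call was lost in 16 of 26 fits without 1 array and the Ldhb call in 14 of 26, with adjusted p up to 0.108 without fluid day 18 replicate 3 and 0.104 without ankle day 12 replicate 3. Among the growth and stress genes Mxi1 was 1.42 ± 0.22 higher (adjusted p 4.0e-06), and Ndrg1 and Ddit4 were lower. Ndrg1 lay between 8.60 and 9.39 (median 9.07) in fluid and between 9.53 and 11.20 (median 10.59) in ankle, so no array crossed, and differed by -1.50 ± 0.11 (2.83-fold lower, adjusted p 1.3e-11). Ddit4 was lower (-0.80 ± 0.15, 1.75-fold, adjusted p 6.5e-05). Collagen hydroxylase subunits split, with P4ha1 0.64 ± 0.16 higher and P4ha2 lower (-0.58 ± 0.07, 1.49-fold, adjusted p 6.0e-08). The other probe set of Ero1a, which oxidises folding proteins, read 1.24 where the chosen one read -0.07.

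Skeletal muscle markers averaged 5.66 to 5.79 in fluid and 7.90 to 8.58 in ankle at days 3 to 18, with 11 of 13 lower in fluid, and 3 of the 13 genes had a fluid mean above the negative controls at each day. The muscle forms of glycolytic enzymes were lower in fluid with them: Pgam2 by -2.69 ± 0.28 (adjusted p 5.7e-09), Eno3 by -1.75 ± 0.23 (adjusted p 4.4e-07) and Pfkm by -0.99 ± 0.13 (adjusted p 6.4e-07), among 4 lower and 0 higher of 8. Fibroblast markers were lower for 9 of 10, and Tgfb3 (-1.50 ± 0.09) and Igfbp3 (-2.30 ± 0.16) were lower, while Cxcr4, a chemokine receptor, was 2.61 ± 0.15 higher (adjusted p 3.8e-14), among 5 higher and 9 lower of 23 further hypoxia targets. Cited2, which competes with HIF for its coactivator, was 1.68 ± 0.18 higher (adjusted p 1.1e-08), Egln2 lower (-0.37 ± 0.13) and Siah1a higher by 0.21 ± 0.08 of 9 other oxygen sensing and related genes. Taldo1 (1.64 ± 0.15, adjusted p 7.2e-10) and Pgd (0.55 ± 0.11) of the pentose phosphate pathway were higher. Pygm (-1.03 ± 0.20), Pygb (-0.41 ± 0.11), Pdk4 (-0.74 ± 0.17), Pck2 (-0.46 ± 0.08) and Pck1 (-0.57 ± 0.12) were lower, and Pgm2 was higher (0.38 ± 0.12). Markers of leukocytes were higher in fluid: those of monocytes and macrophages averaged 10.07 to 10.35 in fluid and 8.58 to 8.78 in ankle at days 3 to 18 (10 of 11 higher), and those of neutrophils 9.33 to 9.70 in fluid and 6.90 to 8.0 in ankle (8 of 10 higher, 1 lower). The part of the muscle, fibroblast and leukocyte markers in the results on fluid against ankle was not tested.

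Ankle and blood were also compared before serum. At day 0, 13 of the 36 members were higher in ankle than in blood leukocytes and 5 lower, where 42.2% of all genes were called (22.4% higher and 19.8% lower), so the share of members called lay near that of all genes. Ndrg1 read 10.94, 11.39, 10.96 and 10.79 in ankle, against 8.24, 7.88 and 7.82 in blood, a difference of 3.04 ± 0.23 (8.22-fold, adjusted p 2.8e-12). Tpi1 read 9.99, 10.20, 10.64 and 10.28 in ankle, against 7.94, 7.70 and 7.80 in blood, 2.46 ± 0.19 higher (5.52-fold, adjusted p 5.4e-12). Both genes were far apart in all arrays. P4ha2 (1.09 ± 0.14), Gapdh (1.17 ± 0.16), Bnip3 (1.53 ± 0.21) and Eno2 (1.16 ± 0.18) followed by p, and Aldoa (1.62 ± 0.26), Ldha (1.48 ± 0.34) and Hk2 (0.66 ± 0.24, second probe set -0.13) were higher too. P4ha1 (1.28 ± 0.27), Higd1a (0.81 ± 0.20), Pkm (0.53 ± 0.15, 1.44-fold) and Vegfa (0.42 ± 0.11) completed the 13. Eno2, Hk2 and Vegfa exceeded the negative controls in 0 ankle arrays of day 0, and Bnip3 and Higd1a in 1 of 4. In blood of day 0 each of these genes did so in 0 arrays. The median difference was 0.22 for the members and 0.05 for all genes. Hif1a differed by -0.08 ± 0.23 and did not pass (adjusted p 0.810).

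Lower in ankle at day 0 were Pdk1 (-1.63 ± 0.25, 3.1-fold, adjusted p 3.6e-06), Hk1 (-1.01 ± 0.16, 2.01-fold, adjusted p 6.4e-06), Slc2a3 (-1.02 ± 0.16, adjusted p 4.9e-06), Mxi1 (-0.95 ± 0.32, adjusted p 0.0172) and Slc2a1 (-0.31 ± 0.11, adjusted p 0.0250). The Pdk1 arrays read 6.88, 7.59, 7.17 and 6.96 in ankle, against 9.12, 8.40 and 8.82 in blood, with no overlap. A second Slc2a3 probe set gave 0.15, at levels under 6.85. The Mxi1 call was lost without ankle day 0 replicate 1 (adjusted p 0.0812) or blood day 0 replicate 1 (0.0689). The calls of Slc2a1 and Hk2 were each lost in 4 of 7 fits without 1 array, with adjusted p up to 0.115 without ankle day 0 replicate 4 for Slc2a1 and 0.114 without blood day 0 replicate 2 for Hk2. Muscle markers were higher in ankle for 11 of 13, and the muscle forms Pgam2 (4.07 ± 0.53), Pfkm (1.90 ± 0.25) and Eno3 (1.97) were higher with them, while Bpgm was lower (-3.11 ± 0.41). Fibroblast markers averaged 9.53 in ankle and 5.52 in blood (9 of 10 higher), adipocyte markers 7.53 in ankle and 4.48 in blood (6 of 6 higher), and those of neutrophils 6.22 in ankle and 8.48 in blood (8 of 10 lower). Markers of T cells averaged 5.58 in ankle and 7.60 in blood (6 of 8 lower) and of B cells 5.89 in ankle and 8.72 in blood (6 of 7 lower). The part of these markers and of muscle RNA in the differences between ankle and blood was not tested. Of 7 glycogen branch genes 4 were higher and 1 lower, with Ugp2 (1.68), Pgm1 (1.51) and Gys1 (1.27) first by p, and of 5 pentose phosphate genes Pgd (0.48) was higher and Rpia (-1.68) and Taldo1 (-1.05) were lower. Pdk4 (1.19), Pcx (0.49) and Pck1 (1.14) were higher. Of 9 other oxygen sensing and related genes 4 were lower, led by Arntl (-1.27), Cited2 (-1.80) and Siah1a (-0.53). Of 23 further hypoxia targets 9 were higher and 3 lower, led by Cp (5.35), Nupr1 (4.0) and Tgfb3 (2.06).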

How the data were processed

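Expression was measured in 49 arrays of 16 groups, and the number of arrays limits the precision. The deposited values are linear intensities of 12488 probe sets, made by the authors with RMA, per the submitters' processing notes, and no version was given in the sources used here. They were set to log2. Of the probe sets, 10855 carry 1 gene symbol in the platform annotation, 396 several and 1237 none, and those without a single symbol were left out. The brightest probe set over the 49 arrays stood for each of 8252 genes. No value was missing and no arrays were identical, replicates correlated between 0.941 and 0.995 over all 12488 probe sets, and array medians lay between 57.7 and 64.1.

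Each tissue was fitted alone with limma 3.58.1 in R 4.3.3 (lmFit, eBayes with trend, two-sided), and fits between tissues took in the arrays of the compared pair. Adjusted p-values are Benjamini-Hochberg over all genes, with a threshold of 0.05. The fits were also run on simulated data with independent noise for each gene and array. That run cannot show how they behave where arrays share variation. Days of a tissue share the arrays of the first day as controls.

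The members and all gene lists were chosen with earlier results of these data known. Every measured member was described by counts, up to 6 called members by smallest p in each direction of a comparison in full, together with called members of a role that moved the other way, up to 3 called genes of each further list, and Hif1a, Vegfa, Slc2a1, Ldha, Hk2 and Pfkfb3 in each tissue.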

Additional observations from a re-analysis of the deposited data

Results flagged for a closer look

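In groups of 4 arrays, 8 of 108 gene and group combinations (7.41%) had 1 array far from the other 3, where chance gives about 1 in 20. In ankle of day 0 Slc2a1 read 5.56 in replicate 4 and Pfkl 6.88 in replicate 2. In ankle of day 7 Pfkfb3 read 7.25 and Epas1 4.61, both in replicate 1. In fluid of day 7 replicate 4 read 7.12 for Pfkp, 8.82 for Ndrg1 and 6.85 for P4ha1, and replicate 1 read 4.30 for Arnt. The labels give fluid day 7 replicates 1 and 4 other preparations than the remaining arrays of that day, and the part of the preparation was not tested.

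The change of Hif1a at day 7 differed between tissues when tested as such, with an ankle change 1.21 above the blood change on the log2 scale. For Hif1a this call was lost in 9 of 14 fits without 1 array (adjusted p up to 0.114) and with the mean of probe sets (0.0610).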

How the results depend on the processing

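Of 82 called member results, 51 were called under every alternative and in every fit without 1 array, none took the other sign, and 2 fell to 0 with a floor at the 20th percentile: Vegfa in ankle against blood at day 0 and Slc16a1 in fluid against blood. Of 10585 values of members not called, 856 had the other sign under an alternative and 168 were called. The numbers of called members moved as follows, each with the share of all genes called in the same fit, and the cause was not tested. Array weights gave 2 (6.37%) in ankle at day 3 (0 as reported), 14 (31.2%) at day 12 (2), 8 (18.8%) at day 18 (2), 2 (5.88%) in fluid at day 7 (1), 9 (19.9%) at day 12 (0), 16 (33.3%) at day 18 (1), 17 (47.8%), 6 (27.1%) and 10 (28.3%) in blood at days 3, 12 and 18 (0 each), and 2 (7.51%) for ankle response minus blood response (1). Quantile normalization gave 7 (7.31%) in ankle at day 7 (4), 3 (3.5%) in fluid at day 18 and 2 (2.38%) for the response difference. A single fit of all 49 arrays gave 2 (8.65%) in ankle at day 7, and 2 (3.6%), 2 (3.95%) and 7 (6.13%) in fluid at days 7, 12 and 18. Without the arrays with liver transcripts ankle gave 4 (4.62%) at day 12 and 1 (2.39%) at day 18. The mean of probe sets gave 3 (3.47%) in fluid at day 18 and 0 (2.25%) for the response difference. In fluid at day 18, a filter on dim genes gave 2 (4.82%), a floor 2 (2.35%), robust eBayes 2 (3.16%), and leaving out the arrays of another preparation 3 (2.46%). The beta-actin ratio gave 1 (1.15%) and 1 (1.22%) at days 12 and 18 in ankle, 0 (1.75%) and 0 (1.99%) at days 7 and 18 in fluid and 11 (17.4%) for fluid against ankle (23). For fluid and blood it was added after the data were seen.

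With the replicate block there were 7 called members (11.1%) and 4 (6.06%) in ankle at days 7 and 12, 3 (4.94%) in fluid at day 18 and 3 (4.14%) for the response difference, and the calls of Tfrc in fluid against blood (adjusted p 0.191) and of Hk1 (0.339) and Ldhb (0.349) in fluid against ankle were lost. For a check of pairing, the mean of its group was first subtracted from each gene in every array. These deviations correlated by 0.26 in ankle, 0.21 in blood and 0.05 in fluid on average between same-numbered arrays of different days. The averages were -0.10, -0.10 and -0.01 between arrays of different numbers and days. Single pairs went down to -0.18, -0.45 and -0.31, and no label says that a number marks a shared mouse or day, so the block stands as an alternative only.

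Leaving out 1 array at a time gave 2 to 6 called members in ankle at day 7, 1 to 4 at day 12 and 0 to 2 at day 18. The ranges were 0 to 1 in fluid at day 7, 0 to 2 at day 18, 0 to 4 in blood at day 3, 28 to 31 for fluid against blood, 21 to 23 for fluid against ankle, 16 to 18 for ankle against blood at day 0 and 0 to 1 for the response difference, and 0 elsewhere. Members under 6.85 have differences close to background, and few arrays a day limit what could be detected.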
